A study of Mus musculus with 6 samples.

Results

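A set of 10 genes for enzymes that reduce, hydrolyse or oxidise reactive carbonyls, quinones and epoxides was followed in mouse ovarian cancer cells with and without the exchange factor Rgnef. The members were picked by name: the quinone reductases Nqo1 and Nqo2, the carbonyl reductases Cbr1 and Cbr3, the aldo-keto reductases Akr1a1, Akr1b3, Akr1b8 and Akr1c13, the epoxide hydrolase Ephx1 and the aldehyde oxidase Aox1. All 10 have a row among the 35275 gene rows of the deposited table, and 9 of them reached the mean level needed for testing. The list was drawn up with earlier results of the same data known. Messenger RNA was sequenced from ID8-KMF cells, a line of C57Bl6/J origin derived from ID8 ovarian cancer cells by passage in mice. The GFP-Rgnef libraries (3) came from Rgnef-/- cells in which a lentivirus expressed GFP-tagged Rgnef, and the knockout libraries (3) from Rgnef-/- cells without it. Both kinds were harvested while subconfluent on Matrigel-seeded dishes, so the loss of endogenous Rgnef is common to all 6 libraries. The comparison asks which RNAs differ when Rgnef is put back; the virus and the tag arrived together with Rgnef and cannot be told apart from it. The labels do not say whether the libraries of a group were separate cultures or whether the cells were 1 clone, and the p-values therefore cover only the library-to-library spread seen here, possibly a technical one.

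Enzymes of this kind act on the functional groups that make foreign and endogenous compounds reactive. Quinone reductases convert quinones directly to hydroquinones and so avoid the semiquinone radical, while carbonyl and aldo-keto reductases use NADPH to turn aldehydes and ketones into alcohols. Epoxide hydrolase adds water to epoxides, and aldehyde oxidase, which carries a molybdenum cofactor, oxidises aldehydes and nitrogen heterocycles. Several of the genes, Nqo1 above all, are textbook targets of NRF2, a transcription factor that binds antioxidant response elements when electrophiles inactivate its inhibitor KEAP1. Nqo1 is also known as a target of the aryl hydrocarbon receptor AHR.

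The sequences just upstream of 4 members are shown because these members carry the contrast described below: Cbr3, Nqo1 and Ephx1 passed the test, and Cbr1, the neighbour and paralogue of Cbr3, was nearly silent. Each is the 250 bases before the RefSeq transcription start (GRCm38.p6), written 5′ to 3′ on the strand of the gene, with CG dinucleotides in capitals.
Nqo1, chr8:107403206-107403455, minus strand: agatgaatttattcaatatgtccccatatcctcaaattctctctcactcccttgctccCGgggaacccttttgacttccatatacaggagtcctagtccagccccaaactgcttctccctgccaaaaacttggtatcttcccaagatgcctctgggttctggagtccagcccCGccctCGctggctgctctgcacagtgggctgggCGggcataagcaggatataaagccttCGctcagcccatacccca
Cbr3, chr16:93682969-93683218, plus strand: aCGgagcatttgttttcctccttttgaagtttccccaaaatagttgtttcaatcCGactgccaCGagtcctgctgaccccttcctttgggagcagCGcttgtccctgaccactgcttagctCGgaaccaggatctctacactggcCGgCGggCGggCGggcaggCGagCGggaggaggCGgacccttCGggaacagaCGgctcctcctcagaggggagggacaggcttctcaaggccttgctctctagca
Cbr1, chr16:93607587-93607836, plus strand: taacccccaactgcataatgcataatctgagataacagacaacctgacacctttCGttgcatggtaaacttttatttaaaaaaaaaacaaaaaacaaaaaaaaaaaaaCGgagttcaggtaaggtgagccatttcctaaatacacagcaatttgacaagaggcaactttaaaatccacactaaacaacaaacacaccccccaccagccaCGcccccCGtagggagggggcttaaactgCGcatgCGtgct
Ephx1, chr1:181017570-181017819, minus strand: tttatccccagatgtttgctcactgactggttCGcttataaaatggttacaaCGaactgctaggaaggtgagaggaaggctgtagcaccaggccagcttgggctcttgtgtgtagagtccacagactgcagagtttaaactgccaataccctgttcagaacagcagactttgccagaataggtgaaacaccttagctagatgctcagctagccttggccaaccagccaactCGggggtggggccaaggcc
The window of Cbr3 holds 14 CG dinucleotides and 59.6% G and C, against 6 and 41.6% for Cbr1, whose start lies 75382 bases upstream on chromosome 16. Nqo1 has 5 CG dinucleotides and Ephx1 has 3, where the median of all 32851 RefSeq windows of this length is 6. The core of the antioxidant response element, TGACNNNGC on either strand, was not matched in any of the 10 windows of the 9 members with a RefSeq entry, and it occurs in 10.2% of all windows. The core of the AHR response element, GCGTG on either strand, lies in the windows of Akr1b8, Aox1, Cbr1 and Nqo2, and in 28.2% of all windows. These are matches of letters in a short window and say nothing about binding. Starts differ between annotations: GENCODE begins Cbr1 and Ephx1 further upstream than RefSeq does.

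The FPKM values (fragments per kilobase of transcript, scaled to depth) implied 15898965 to 17977069 reads per library. Arhgef28, which encodes Rgnef, stood at 57.2, 50.9 and 50.0 FPKM in the GFP-Rgnef libraries, against 0.116, 0.110 and 0.134 FPKM in the knockout libraries, which fits the labels. Of 10 markers of mesothelial and ovarian surface epithelium 7 were above 1 FPKM on average, namely Krt19, Krt18, Krt8, Wt1, Upk3b, Msln and Cdh1, while Krt7, Lrrn4 and Epcam stayed near 0. Their summed level ran from 1657 to 2465 FPKM with GFP-Rgnef and from 1548 to 2483 FPKM in the knockout, and Krt18 alone of them passed the test, higher with GFP-Rgnef. Upk3b had 119.5, 115 and 42.6 FPKM with GFP-Rgnef against 319, 318 and 116 FPKM without it and did not pass. Of 7 leukocyte markers 1 was above 1 FPKM, Adgre1 and Cd3e were at 0 in every library, and the sum was 2.24 to 3.44 FPKM against 2.24 to 3.89 FPKM. The 5 fibroblast markers summed to 49.5 to 71.1 FPKM with GFP-Rgnef and to 39.5 to 44.1 FPKM without it. Dcn, the most abundant of them, had 63.6, 69.7 and 43.4 FPKM against 38.8, 36.4 and 23.3 FPKM and passed the same test, while Col1a1 had 1.35, 0.989 and 3.02 FPKM against 4.03, 3.61 and 8.92 FPKM; their part in the results was not tested. Of 5 endothelial markers 1, Tek, exceeded 1 FPKM, and Kdr was at 0 throughout. Tek was far above that level and did not pass the test. It had 108, 108 and 95.6 FPKM with GFP-Rgnef against 142, 146 and 85.7 FPKM in the knockout. The library numbered 3 differed from the others of its group on both sides: Krt19 was at 794 FPKM in GFP-Rgnef 3 and at 679 FPKM in knockout 3, against 1268 to 1412 FPKM in the other 4 libraries. In bulk RNA, fewer cells with a transcript and less transcript per cell cannot be told apart.

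Cbr3, Ephx1 and Nqo1 rose with GFP-Rgnef and no member fell. All 9 tested members had a positive difference, as did 6116 of all 11500 tested genes. The test was limma with trend on log2(FPKM + 1), adjusted by Benjamini-Hochberg over the 11500 genes with a mean of at least 0.5 FPKM, and a call is an adjusted p below 0.05; every difference is GFP-Rgnef minus knockout on that log2 scale. Thus 3 of 9 were called higher, where 5.34% of all tested genes were called higher, 8.04% lower and 13.4% in either direction. No member was lower by limma, at an unadjusted p below 0.05 or by voom on reads recovered from the FPKM values, and 6 were higher at an unadjusted p below 0.05, as were 13.5% of all tested genes. The 9 differences ran from 0.03 to 2.12 with a median of 0.53, against a median of 0.02 over all tested genes. For Nqo1, Cbr3, Akr1a1, Ephx1 and Aox1 (5 of 9) all 3 GFP-Rgnef libraries lay above all 3 knockout libraries, which held for 16.7% of all tested genes (33.4% did not overlap in either direction). The number called was 1 (Cbr3) without GFP-Rgnef 2 or without knockout 2, 2 without GFP-Rgnef 3 or without knockout 1, and 5 without knockout 3 or with the libraries numbered 1 and 2 alone.

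**Figure D1:**
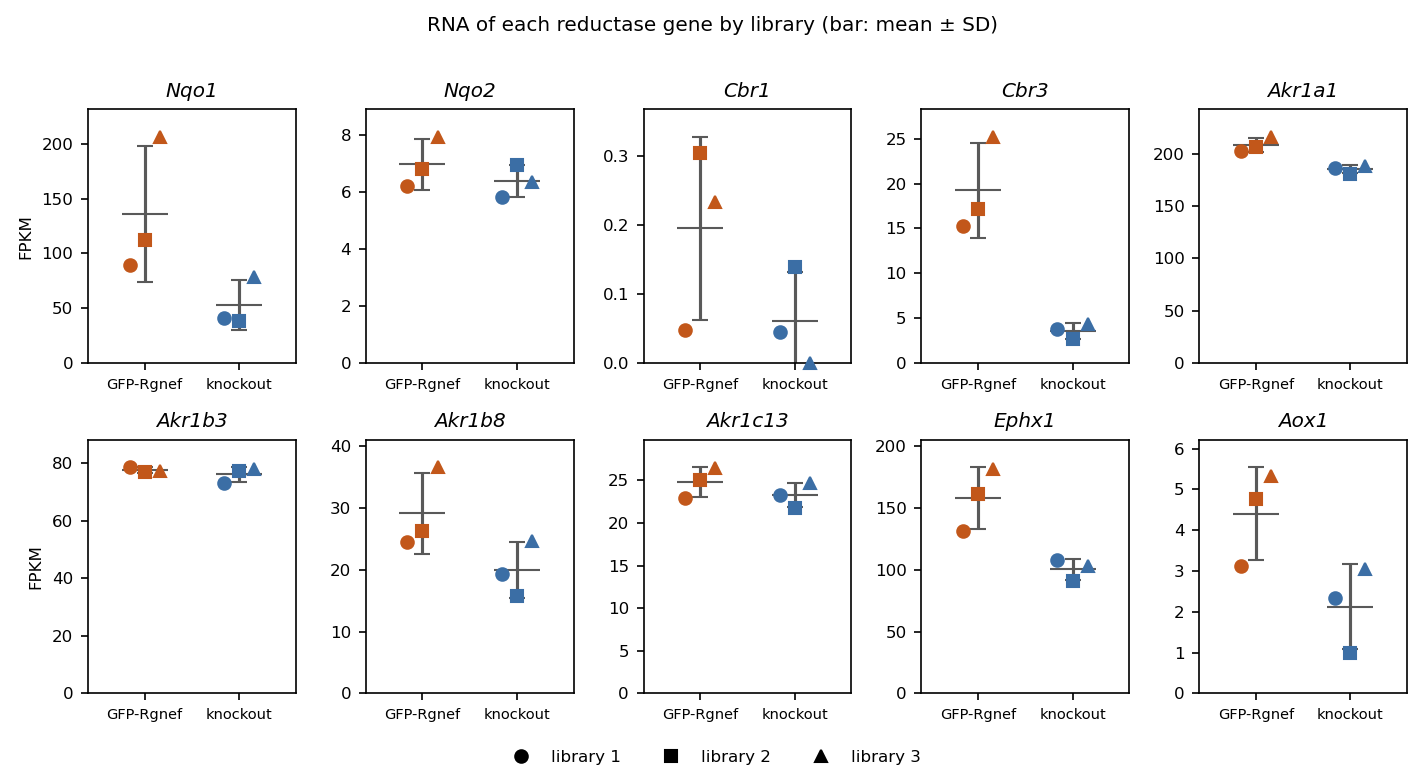
FPKM of the 10 genes in each library, with GFP-Rgnef left of knockout in every panel; symbols give the library number, and bars the mean ± SD (n = 3), cut at 0 for Cbr1. Cbr3, Nqo1, Ephx1, Akr1a1 and Aox1 show no overlap between groups, and the triangles of library 3 sit on top for 8 of 10 genes with GFP-Rgnef and 7 of 10 in the knockout.

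Of the quinone reductases Nqo1 passed the test and Nqo2 did not. Nqo1 (ENSMUSG00000003849, GRCm38 chromosome 8, 107388225 to 107403206, minus strand) uses NADH or NADPH to reduce quinones. It stood at 89.7, 112 and 207 FPKM in the GFP-Rgnef libraries numbered 1, 2 and 3, against 41.3, 38.4 and 78.9 FPKM in knockout libraries 1, 2 and 3. The lowest GFP-Rgnef library was above the highest knockout library by a small margin, because library 3 was the highest of its group on both sides. Its means were 136 ± 62.1 and 52.8 ± 22.6 FPKM (SD, n = 3), a ratio of 2.58, which gave a difference of 1.33 (SE 0.341, limma adjusted p = 0.0381). Between libraries of equal number the difference was 1.10, 1.52 and 1.38 for numbers 1, 2 and 3. The labels do not say whether equal numbers are pairs, which limits such differences of other genes below as well. With numbers 1 and 2 alone the difference of Nqo1 was 1.31 (limma adjusted p = 0.000124). That fit leaves out library 3 of both groups, so its p does not cover the spread that library 3 adds, here or below. Leaving out 1 library ended the call in 4 of 6 cases: GFP-Rgnef 2 (limma adjusted p = 0.0837), GFP-Rgnef 3 (0.0668), knockout 1 (0.113) and knockout 2 (0.139). It was also lost without limma's trend (0.0572), after removing each chromosome's median deviation (0.0627) and without the filter on low values (0.107).

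Nqo2, whose product takes dihydronicotinamide riboside rather than NADPH as its electron donor, was much less abundant than Nqo1 in FPKM. It had 6.19, 6.78 and 7.93 FPKM with GFP-Rgnef and 5.81, 6.94 and 6.35 FPKM in the knockout. These ranges overlap, and the difference of 0.11 (SE 0.111, limma adjusted p = 0.582) was no larger than its error. Of its annotated exon bases 18.9% overlap Serpinb6a on the opposite strand, which averaged 209 FPKM, and reads of this stretch cannot be assigned to either gene without strand. The ratio of both paralogues was compared within libraries: log2 of Nqo1 over Nqo2, each with 1 FPKM added, was 3.66, 3.86 and 4.54 with GFP-Rgnef, against 2.63, 2.31 and 3.44 in the knockout. The groups did not overlap, and the exact two-sided permutation p was 0.10, the smallest that 3 against 3 libraries allow (0.15 adjusted over the 3 paralogue ratios).

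The carbonyl reductases showed the widest contrast. Cbr3 (ENSMUSG00000022947, GRCm38 chromosome 16, 93683215 to 93690990, plus strand) had 15.3, 17.1 and 25.2 FPKM with GFP-Rgnef, against 3.80, 2.65 and 4.39 FPKM without it. The groups were far apart, with 305 to 510 reads per GFP-Rgnef library against 54 to 86 per knockout library. The means were 19.2 ± 5.27 and 3.62 ± 0.884 FPKM (SD, n = 3), a ratio of 5.32, with a difference of 2.12 (SE 0.2002, limma adjusted p = 0.000886). Among all tested genes 99.9% had a smaller difference. Cbr3 kept its call under all 17 alternatives, with differences of 1.92 to 2.41 and limma adjusted p up to 0.00648, and within library numbers the difference was 1.76, 2.31 and 2.28. No 75-base window of its transcripts occurs in a transcript of another gene.

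Cbr1, the better known carbonyl reductase, which acts on prostaglandins, quinones and anthracyclines, was nearly absent. It had 1, 6 and 5 reads in the GFP-Rgnef libraries and 1, 3 and 0 in the knockout libraries, or at most 0.305 FPKM. The library with 0 reads allows a level of up to 0.145 FPKM by counting error alone. Cbr1 was below the filter and no change was detectable at this depth; in the fit without a filter its difference was 0.17 (SE 0.0908, limma adjusted p = 0.391). Log2 of Cbr3 over Cbr1, each with 1 FPKM added, was 3.96, 3.80 and 4.41 with GFP-Rgnef against 2.20, 1.68 and 2.43 in the knockout, again without overlap (exact two-sided permutation p = 0.10, adjusted 0.15). With so few Cbr1 reads this ratio is nearly the value of Cbr3 itself, and with 0.1 FPKM added the difference was 1.53 with an exact p of 0.20. Cbr3 had the higher FPKM of the pair in every library of both groups.

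None of the aldo-keto reductases passed the test. Akr1a1, the aldehyde reductase that in mice also serves ascorbate synthesis, was the most abundant member, with 203, 206 and 216 FPKM in the GFP-Rgnef libraries against 186, 181 and 188 FPKM in the knockout libraries. The groups did not overlap, but the difference was only 0.17 (SE 0.0571) and did not pass (limma adjusted p = 0.0917). Akr1b3, the mouse aldose reductase that converts glucose to sorbitol, was level: 78.7, 76.9 and 77.4 FPKM with GFP-Rgnef and 73.2, 77.3 and 78.0 FPKM without it. Its difference was 0.03 (SE 0.0592, limma adjusted p = 0.816), and it was -0.0045 after chromosome centring and -0.00047 without knockout 1. Part of the windows of its transcripts, 12.1%, also occur in transcripts annotated as other genes. Akr1c13, a hydroxysteroid dehydrogenase of the mouse Akr1c cluster, had 22.9, 25.1 and 26.4 FPKM against 23.3, 21.8 and 24.7 FPKM in the knockout, with overlapping groups and a difference of 0.09 (SE 0.0828, limma adjusted p = 0.552). Its paralogue Akr1c12 shares 14.3% of the windows of Akr1c13 but was itself at 0.0639 and 0.150 FPKM on average with and without GFP-Rgnef.

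Akr1b8, the family member first described as a protein induced by fibroblast growth factor, had the largest difference of the 4. Its level was 24.5, 26.3 and 36.7 FPKM with GFP-Rgnef, against 19.2, 15.8 and 24.7 FPKM in the knockout. Knockout 3 was marginally above GFP-Rgnef 1, and the groups otherwise separated, with GFP-Rgnef higher within each library number by 0.34, 0.70 and 0.55. The difference of 0.53 (SE 0.184) did not pass (limma adjusted p = 0.0994), but it did without knockout 3 (0.69, limma adjusted p = 0.0382) and with libraries 1 and 2 alone (0.52, limma adjusted p = 0.00924). It was smaller without GFP-Rgnef 3 or knockout 2, at 0.36 and 0.38 (limma adjusted p = 0.199 and 0.289). Log2 of Akr1b8 over Akr1b3 (1 FPKM added), its neighbour on chromosome 6, was -1.64, -1.51 and -1.06 with GFP-Rgnef and -1.87, -2.22 and -1.62 without. That is a difference of 0.50 with overlapping groups (exact two-sided permutation p = 0.20, also after adjustment).

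Ephx1 (ENSMUSG00000038776, GRCm38 chromosome 1, 180976210 to 181020904, minus strand), the microsomal epoxide hydrolase, rose. Its level was 132, 162 and 182 FPKM in the GFP-Rgnef libraries, against 108, 91.2 and 103 FPKM in the knockout libraries. The groups were clearly apart, and unlike Nqo1 the knockout libraries showed no excess in library 3. Means of 158 ± 25.1 and 101 ± 8.50 FPKM (SD, n = 3) gave a ratio of 1.57 and a difference of 0.64 (SE 0.119, limma adjusted p = 0.0113). Without GFP-Rgnef 2 or knockout 2 the adjusted p was 0.0502 and 0.0548, just past the threshold, while the difference stayed at 0.62 and 0.57.

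Aox1, the aldehyde oxidase, was a low transcript with a sizeable but scattered difference. It had 3.12, 4.78 and 5.32 FPKM with GFP-Rgnef against 2.33, 0.995 and 3.06 FPKM in the knockout, from 288 to 499 reads against 94 to 278. The lowest GFP-Rgnef library only just exceeded the highest knockout library. Its difference of 0.83 (SE 0.266) did not pass (limma adjusted p = 0.0798), and it passed without knockout 3 (1.05, limma adjusted p = 0.0360) and with libraries 1 and 2 alone (0.92, limma adjusted p = 0.0313). Without knockout 2, the lowest library, it was 0.53 (limma adjusted p = 0.186). On a scale with less added to low values it was 1.11 (pseudocount 0.1, limma adjusted p = 0.0941).

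**Figure D2:**
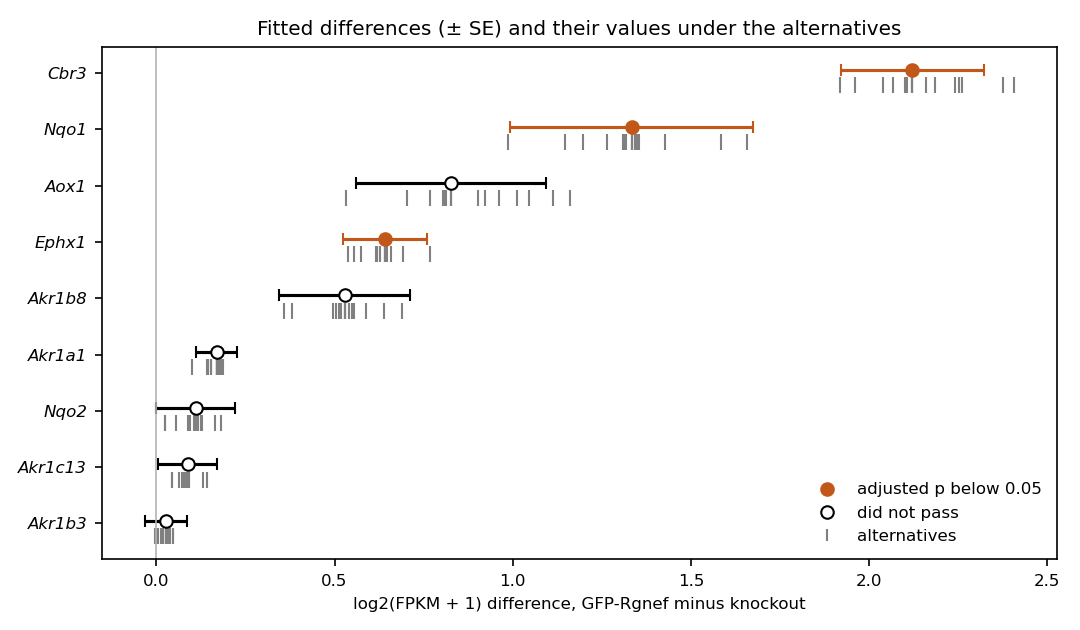
Fitted log2(FPKM + 1) difference, GFP-Rgnef minus knockout, of the 9 tested genes with its SE; grey ticks under each point give the value under every alternative processing. Cbr3 lies at 2.12 and Nqo1 at 1.33, Akr1a1, Nqo2, Akr1c13 and Akr1b3 lie below 0.2, and only ticks of Akr1b3 reach the other side of 0.

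In absolute terms 3 of the 10 genes dominated. Akr1a1, Ephx1 and Nqo1 together made up 73.8% to 77.1% of the summed FPKM of the set in the GFP-Rgnef libraries and 71.2% to 72.4% in the knockout libraries. The order of mean levels with GFP-Rgnef was Akr1a1, Ephx1, Nqo1, Akr1b3, Akr1b8, Akr1c13, Cbr3, Nqo2, Aox1 and Cbr1. Neighbours whose GFP-Rgnef libraries overlapped were Ephx1 and Nqo1, Akr1b8 and Akr1c13, and Akr1c13 and Cbr3. In the knockout the order differed at 3 places: Akr1b3 stood above Nqo1, Akr1c13 above Akr1b8, and Nqo2 above Cbr3. Of these pairs the knockout libraries overlapped for Akr1b3 and Nqo1 and for Akr1c13 and Akr1b8, and not for Nqo2 and Cbr3. The summed level was 665 ± 107 FPKM with GFP-Rgnef and 470.1 ± 38.1 FPKM without it (SD, n = 3), and the share of Nqo1 in the mean sum was 20.5% against 11.2%.

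The libraries numbered 3 carried higher values of several members in both groups. Nqo1 in library 3 exceeded the mean of libraries 1 and 2 by 1.04 with GFP-Rgnef and by 0.97 in the knockout, on the log2(FPKM + 1) scale. Akr1b8 exceeded it by 0.51 and 0.48, Cbr3 by 0.61 and 0.36, and Aox1 by 0.37 and 0.66. For Nqo1 the difference between groups was 1.33. By contrast Akr1b3 differed by -0.01 and 0.05 and Akr1a1 by 0.08 and 0.04. Akr1c13 was higher in library 3 by 0.13 in both groups. For Ephx1 the step was 0.31 with GFP-Rgnef but 0.05 in the knockout, and for Nqo2 it was 0.26 and -0.0013. Library 3 was the highest of its group for 8 of the 10 genes with GFP-Rgnef and for 7 of the 10 in the knockout, where 41.9% and 41.0% of all tested genes had library 3 highest. With libraries 1 and 2 alone the difference was 2.04 for Cbr3 and 0.55 for Ephx1 (limma adjusted p = 6.28e-05 and 0.00889), beside the values given above for Nqo1, Akr1b8 and Aox1. The labels do not say what a library number stands for.

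**Figure D3:**
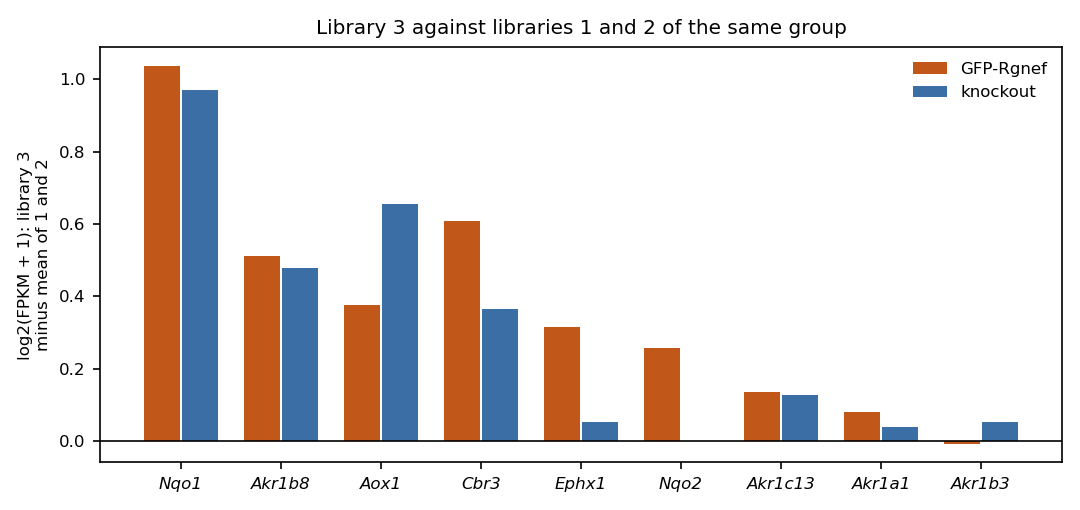
Height of library 3 over the mean of libraries 1 and 2 of the same group, on the log2(FPKM + 1) scale, for the 9 tested genes, with GFP-Rgnef left of knockout. Nqo1 stands about 1 unit higher in library 3 of both groups, while Akr1a1 and Akr1b3 stay within 0.1 of 0.

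Of 54 related enzymes 38 were tested: further carbonyl, aldo-keto, short-chain, epoxide and molybdenum enzymes, and reductases of cytochrome b5, biliverdin, prostaglandins and ferredoxin. By limma 3 rose and 4 fell (3 and 3 by voom), shares near the 5.34% and 8.04% of all tested genes. At an unadjusted p below 0.05, 9 were higher and 5 lower, against 1551 and 1718 of all 11500 tested genes. A positive difference was found for 28 of the 38, against 6116 of all 11500. The median difference was 0.13, against 0.02 over all tested genes. Akr1c18, the mouse progesterone-reducing hydroxysteroid dehydrogenase in the same cluster as Akr1c13, rose, with 6.77, 9.64 and 13.3 FPKM with GFP-Rgnef against 3.03, 2.44 and 4.55 FPKM without it (difference 1.31, SE 0.241, limma adjusted p = 0.0109). Mocos, whose product sulfurates the molybdenum cofactor that aldehyde oxidase needs, averaged 2.93 ± 0.357 and 1.65 ± 0.0701 FPKM (SD, n = 3; difference 0.56, limma adjusted p = 0.0152). The third gene that rose was Fdxr, a mitochondrial ferredoxin reductase, named here after its values were seen. On the other side Dhrs4, a peroxisomal carbonyl reductase, had 3.98 ± 0.851 FPKM with GFP-Rgnef and 6.94 ± 0.613 FPKM in the knockout (difference -0.69, limma adjusted p = 0.0147). Hsd17b11, a lipid droplet dehydrogenase, had 0.247 ± 0.0560 and 1.37 ± 0.319 FPKM (difference -0.92, limma adjusted p = 0.00551), from 7 to 10 reads per GFP-Rgnef library, and the difference was -2.07 with a pseudocount of 0.1 and -2.40 by voom. Rdh13 and Hsd17b4 also fell, and they too were named after their values were seen. Without knockout 2 Akr1c18, Mocos and Dhrs4 no longer passed (limma adjusted p = 0.0509, 0.0548 and 0.0504), nor did Mocos and Dhrs4 without GFP-Rgnef 2 (0.0583 and 0.0595). Dhrs4 also did not pass without the filter on low values (limma adjusted p = 0.0518). With 1 library left out, 0 to 5 of the list rose and 1 or 2 fell.

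Among other NRF2 targets several rose with GFP-Rgnef. Of 36 listed genes, none of them a member, 34 were tested. Of these 15 rose, against 5.34% of all tested genes, and 32 had a positive difference, against 6116 of all 11500. The median was 0.43, close to the 0.53 of the reductase set. None fell by limma or voom, and 1 was lower at an unadjusted p below 0.05, as were 1718 of all tested genes. Aldh3a1, an aldehyde dehydrogenase, had 38.9, 48.2 and 103 FPKM with GFP-Rgnef against 2.54, 1.85 and 4.28 FPKM without it. Gsta1, a glutathione transferase that shares 84.7% of its 75-base windows with near-identical genes and is therefore uncertain, had 31.9, 34.0 and 80.4 FPKM against 2.71, 2.21 and 3.99 FPKM. Both showed the high library 3 seen for Nqo1 and Cbr3. Glutathione synthetase Gss (difference 0.73) and G6pdx, the dehydrogenase that opens the pentose phosphate route (0.47), rose with limma adjusted p of 0.00175 and 0.00331, and exons of both overlap genes on the opposite strand. Others did not pass: Gclc, the catalytic subunit of the enzyme that starts glutathione synthesis, had 42.7 ± 8.49 FPKM with GFP-Rgnef and 42.1 ± 1.54 FPKM without it (SD, n = 3), and Hmox1, the heme oxygenase, had 38.7 ± 4.27 and 46.5 ± 5.19 FPKM (limma adjusted p = 0.991 and 0.149), both named after their values were seen. That NRF2 targets are higher with GFP-Rgnef was known when the lists were chosen and is no independent support.

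**Figure D4:**
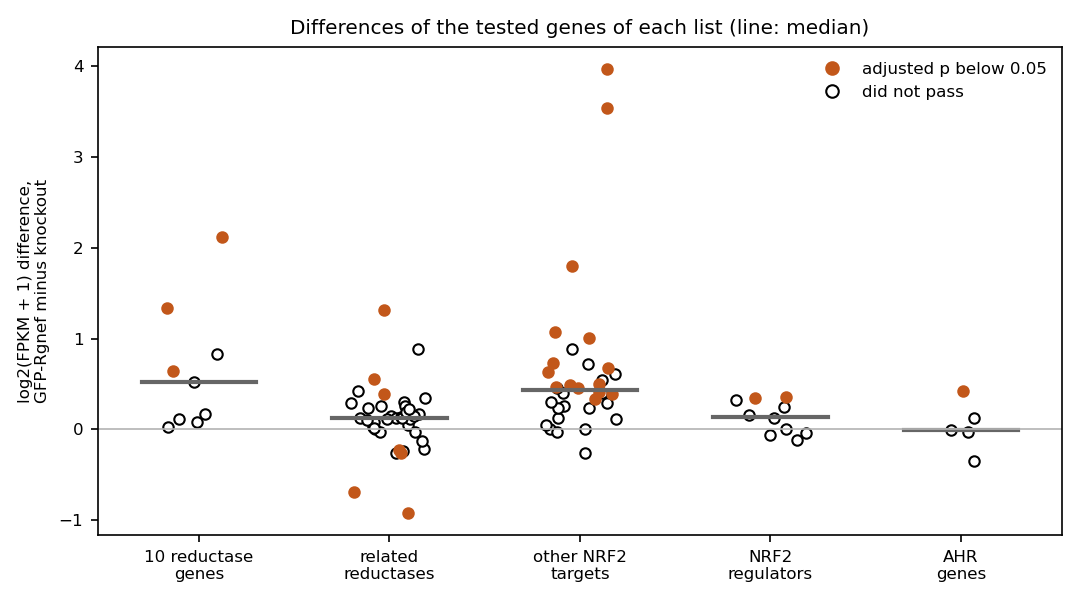
Log2(FPKM + 1) differences, GFP-Rgnef minus knockout, of the tested genes of the reductase set and of 4 other lists; filled points passed the test and lines mark medians. The medians are 0.53 for the reductase set, 0.13 for related reductases, 0.43 for other NRF2 targets, 0.14 for NRF2 regulators and -0.003 for AHR genes.

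Among 10 tested NRF2 regulators 2 rose by limma, 3 were higher by voom and 4 at an unadjusted p below 0.05, and none was lower by any of these. Of all 11500 tested genes 614 (5.34%), 576 and 1551 (13.5%) were higher by these 3 measures, and 925, 996 and 1718 lower. Nfe2l2, which encodes NRF2, had 110.2, 112 and 115 FPKM in the GFP-Rgnef libraries, against 88.2, 92.6 and 82.9 FPKM in the knockout libraries (difference 0.35, SE 0.0642, limma adjusted p = 0.0108). Maff, a small MAF partner, had 38.6 ± 1.25 and 29.9 ± 2.47 FPKM (SD, n = 3; limma adjusted p = 0.0206). Without GFP-Rgnef 2 neither passed (limma adjusted p = 0.0532 and 0.0710), and Maff also failed without GFP-Rgnef 1, knockout 1 or knockout 2, with limma adjusted p of 0.0662 to 0.0843. Knockout 3 was the lowest knockout library for Nfe2l2 and the highest for Maff. Of 8 AHR genes 5 were tested, 1 rose and none fell by limma or voom, with 1 lower at an unadjusted p below 0.05. For these counts too the background is that of all tested genes given above. Cyp1b1, a classical target of the receptor, had 73.6, 82.9 and 94.3 FPKM with GFP-Rgnef and 71.4, 70.0 and 88.8 FPKM in the knockout, which overlap (difference 0.12, SE 0.118, limma adjusted p = 0.558). Ahrr, Cyp1a1 and Cyp1a2 were below the filter.

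The genes whose values over the 6 libraries were most like those of Nqo1, among 8576 with a mean of at least 5 FPKM, were Gsta4, Slc35g1, Nrn1, Mphosph9 and Dguok, with Pearson r of 0.992 to 0.995 on log2(FPKM + 1). For Cbr3 they were Aldh3a1, Pgd, Gsta1, Cx3cl1 and Osbpl3, with r of 0.995 to 0.998. These r are descriptions: the 6 points share their libraries, and each r takes in both the step between groups and that between library 3 and the others. Gsta4, a glutathione transferase acting on lipid aldehydes, had 560 to 985 FPKM with GFP-Rgnef against 305 to 454 FPKM in the knockout (difference 1.01, limma adjusted p = 0.0201). It lost the call without GFP-Rgnef 2, knockout 1 or knockout 2 (limma adjusted p = 0.0534, 0.0669 and 0.0848), and without the filter on low values (0.0654). Nrn1, Dguok, Slc35g1 and Mphosph9 did not pass, with differences of 0.76, 0.32, 0.26 and 0.19 (limma adjusted p = 0.0625, 0.0981, 0.127 and 0.138). The genes most like Cbr3 share its step between groups by the way they were chosen: Pgd (6-phosphogluconate dehydrogenase) had 294 ± 22.9 and 206 ± 11.4 FPKM and the chemokine gene Cx3cl1 had 9.16 ± 1.63 and 3.84 ± 0.640 FPKM (SD, n = 3).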

How the data were processed

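Poly-T selected RNA of 6 libraries was prepared with a NEBNext Ultra kit and sequenced, per the labels. A single table of FPKM values was deposited by the authors. The submitters' processing notes name CASAVA 1.8, TopHat2 2.0.9, DESeq2 and the build mm10; which tool made the values, the annotation and the handling of strand are not given in the sources used here. All columns of the table were used. Groups and replicate numbers came from the labels. GENCODE mouse release M 21 (GRCm38, the assembly of mm10) gave symbols for 34490 identifiers, and RefSeq (GRCm38.p6) gave promoters.

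Whole reads were recovered from the FPKM values: depths came from the steps of low values, and for 99.99% of the 19655 genes above 0 a length of at most 30000 bases gave whole numbers within 0.02 in every library, the annotated exon length for 4228 and the smallest such length for 15426. Read counts given here are these.

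limma 3.58.1 (R 4.3.3, trend) was fitted to log2(FPKM + 1) over genes with a mean of at least 0.5 FPKM. Members and lists were chosen with earlier results of these data known. The genes named were all members, Arhgef28, up to 4 called genes of smallest p per list, filled to 2 with the most abundant, and the 5 most correlated with Nqo1 and with Cbr3; others are marked where named. Some genes enter the counts of the lists but are not reported here. The test was run on simulated reads with 200 changed genes and 1 spread for all genes (negative binomial dispersion 0.01). It recovered 61.2% of changes of 1.5-fold, 91.0% of 2-fold and 100% of 4-fold, with 14 false calls among 11483 genes. No step of library 3 was simulated, so this does not show how the test does for genes such as Nqo1. Alternatives covered pseudocount, filter, scaling, trend, replicate block, each library left out, libraries 1 and 2 alone, voom and chromosome centring. Python 3.11.15 and matplotlib 3.10.9 made tables and plots.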

Additional observations from a re-analysis of the deposited data

How the results depend on the processing

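Of the members, Cbr3 kept its call under all 17 alternatives; Nqo1 lost it under 7 and Ephx1 under 2, as given above. The number of members higher was 3, with a range of 1 to 5 with 1 library left out, 5 with libraries 1 and 2 alone and 6 with the replicate number as a block, which added Akr1b8, Aox1 and Akr1a1 (limma adjusted p = 0.00139, 0.0123 and 0.0453); no member was lower under any alternative run. The labels do not say whether the numbers pair the libraries. Deviations from the group mean correlated between groups at r = 0.448, -0.0321 and 0.647 for numbers 1, 2 and 3. Between unlike numbers r was 0.576 for GFP-Rgnef 2 with knockout 1 and 0.343 for GFP-Rgnef 1 with knockout 2. Where 1 of the unlike libraries was numbered 3, r ran from -0.652 to -0.210. These r cannot decide it, because the deviations within a group depend on each other. Of all genes, 614 were higher and 925 lower; 1253 and 1517 with the replicate block, 1048 and 1273 with libraries 1 and 2 alone, 388 and 494 after chromosome centring, 394 higher without a filter, and 198 to 578 higher and 455 to 850 lower with 1 library left out. Of the related reductases 6 rose with the replicate block or with libraries 1 and 2 alone, 0 to 5 rose and 1 to 2 fell with 1 library left out, and 2 fell after chromosome centring or without trend. The NRF2 targets had 15 higher in the main fit, and 26 higher and 1 lower with the block. With libraries 1 and 2 alone 21 of them were higher and 1 lower. Without the filter 12 were higher, and with 1 library left out 11 to 16. The NRF2 regulators had 4 higher with the block and 0 to 2 with 1 library left out. The AHR genes had 1 lower with the block and with libraries 1 and 2 alone. Paralogue ratios kept their direction in every alternative run. None of the genes followed through the alternatives reversed a call; Fdxr, Rdh13, Hsd17b4, Krt18, Dcn, Gclc and Hmox1 were not followed. Counting error limits Cbr1 (0 to 6 reads per library) and, less so, Cbr3 in the knockout and Aox1.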
